A study of Homo sapiens with 12 samples.

Results

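The genes described here lay on the same side of the parental level in 2 Ewing sarcoma cell lines that had become resistant to YK-4-279. They were chosen from all 12 RNA sequencing libraries of the series, 6 from resistant and 6 from parental cells. A gene was kept when, in A4573 and again in TC-71, its level in all 3 resistant libraries lay on the same side of all 3 parental ones, and the side was the same in both lines. Of 14335 genes tested, 4720 were kept, 2508 of them higher and 2212 lower in the resistant cells.

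The 4 groups are A4573 parental and TC-71 parental, both in the solvent DMSO, and their resistant derivatives A4573-R and TC-71-R, both in YK-4-279. According to the labels A4573-R was kept in 650 uM and TC-71-R in 400 uM, and since doses this high are unusual for the compound the unit may be wrong. Resistance and exposure to the compound go together in every comparison, so the effects of the one and the other cannot be told apart. Each resistant line stands for 1 derivative of its parent, and its selection was not described in the labels. All cells grew in RPMI with 10% fetal bovine serum. Nothing in the labels says that the 3 libraries of a group came from separate cultures. P-values for a single line, or for the difference between lines, therefore measure the spread between these libraries, which may be technical. Those for the change common to both lines also include how far the lines differ in that change. They too count each library as a replicate, although each line has only 1 resistant derivative.

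In Ewing sarcoma, a cancer of bone and soft tissue, a chromosome translocation joins EWSR1 to an ETS-family gene, most often FLI1. The fusion protein EWS-FLI1 binds GGAA-rich DNA and both activates and represses genes. YK-4-279 is a small molecule developed to keep EWS-FLI1 from binding RNA helicase A, the product of DHX9, and it has also been reported to disturb microtubules. Cultured Ewing cells move between a proliferative state with high EWS-FLI1 activity and a more mesenchymal state in which matrix, adhesion and TEAD-driven genes are expressed.

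Between 44.0 and 62.1 M reads (M, 1000000) fell on named genes in each library. Levels are counts per 1000000 reads (CPM) as scaled by the authors, and changes are differences of log2(CPM + 1), which understate the fold change of genes with few CPM. Of the Ewing sarcoma markers, NKX2-2, NR0B1, STEAP1, PAPPA and CCND1 had group means of 18.8 CPM or more in all 4 groups, but CD99, the surface protein used to diagnose the tumour, reached at most 0.0145 CPM. CD99 lies in the region shared by the X and Y chromosomes, and 12 genes of that region that were looked up all stayed at or below 0.0266 CPM, so none was tested. The 5 leukocyte markers summed to at most 1.40 CPM, the 4 endothelial ones to at most 1.57 and the 4 skeletal muscle ones to at most 0.302. The 7 fibroblast markers, which mesenchymal tumour cells share, summed to 687 to 709 CPM in A4573 parental and 533 to 542 in A4573-R, but to 104.0 to 104.4 in TC-71 parental and 125 to 127 in TC-71-R. The 5 epithelial markers summed to 21.4 to 22.4 CPM in TC-71 parental and 4.65 to 5.42 in TC-71-R, and to at most 1.81 in A4573.

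FLI1, the ETS partner of the fusion, is among the genes kept. It stood at 36.2, 37 and 38.1 CPM in A4573 parental, 21.9, 22.5 and 20.7 in A4573-R, 23.8, 23.6 and 23.4 in TC-71 parental and 21, 19.3 and 20.6 in TC-71-R. All resistant libraries were below their parents, with a log2 change of -0.75 (SE 0.04) in A4573 and -0.21 (SE 0.04) in TC-71, and the common change was -0.48 (SE 0.09) with an adjusted p of 0.0011 from limma. Reads on FLI1 include those from the 3′ part of the fusion and cannot separate it from the normal gene. EWSR1 and DHX9 were not kept because they went opposite ways. EWSR1 changed by -0.24 in A4573 and 0.14 in TC-71, and DHX9 by -0.37 in A4573 and 0.48 in TC-71, with common changes of -0.05 (adjusted p = 0.54) and 0.06 (adjusted p = 0.74) that did not pass.

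The shared set was large in number and small in size. With line as a covariate, limma called 51.6% of all tested genes, 7400, at an adjusted p under 0.05, 3802 higher (26.5%) and 3598 lower (25.1%). Of the 4720 kept genes (32.9% of those tested, 17.5% higher and 15.4% lower), 4698 were among these calls, but the rule and the test read the same values, so this count is a description. The median of the smaller of the 2 line changes was 0.26 among the kept higher genes and 0.25 among the kept lower ones, in absolute log2. Of the kept genes, 95 (0.663% of all tested) changed 2-fold or more in both lines, 52 higher and 43 lower, and 4 changed 4-fold or more.

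Nearly as many genes separated in opposite directions. In 4033 genes (28.1% of those tested) the resistant libraries were all above the parental ones in one line and all below in the other. Among the 8753 genes that separated in both lines, 53.9% lay on the same side. At 2-fold or more in both lines, 95 genes lay on the same side and 94 on opposite sides. Across genes the 2 line changes had a Pearson r of 0.035 and a Spearman rank correlation of 0.065 over 14335 genes, which are not independent replicates.

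**Figure D1:**
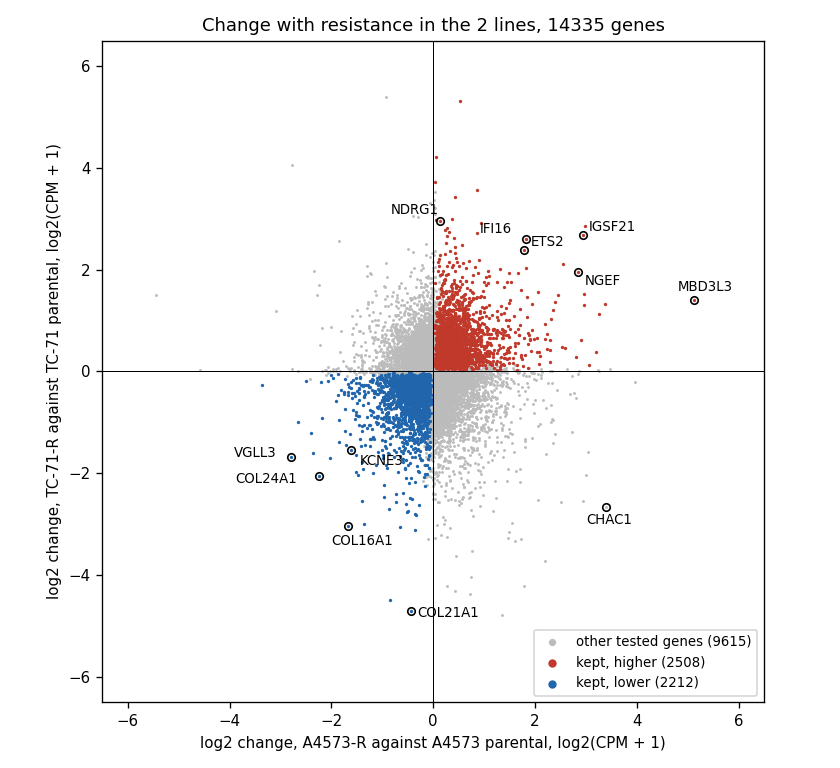
Each point is 1 of the 14335 tested genes, placed by its log2 change in A4573-R (x axis) and in TC-71-R (y axis), each against its parental line, on the log2(CPM + 1) scale. The 2508 kept higher genes are red, the 2212 kept lower ones blue and all others grey. Most of the coloured points lie close to the origin, and the grey points fill the other 2 quadrants about as densely.

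Among the genes that rose most in both lines, several encode sensors of foreign nucleic acid and transcription factors. IFI16, a sensor of DNA, stood at 9.81, 9.78 and 10.2 CPM in A4573 parental, 35.6, 40.5 and 37.3 in A4573-R, 17.8, 17 and 17.7 in TC-71 parental and 111, 109.5 and 112 in TC-71-R. Every resistant library was above every parental library of both lines, and the change was 1.83 (SE 0.04) in A4573 and 2.6 (SE 0.04) in TC-71. IFIH1, which encodes the RNA sensor MDA5, stood at 2.02, 2.28 and 2.1 CPM in A4573 parental, 7.54, 8.35 and 7.38 in A4573-R, 5.78, 5.98 and 5.38 in TC-71 parental and 24.9, 25.6 and 23.9 in TC-71-R. It rose by 1.48 (SE 0.06) in A4573 and 1.94 (SE 0.06) in TC-71, and here too no resistant library fell to the level of any parental one. ETS2, a transcription factor of the ETS family to which FLI1 belongs, stood at 19.3, 20.0 and 20.0 CPM in A4573 parental, 70.6, 69 and 72.7 in A4573-R, 39.7, 39.8 and 40.1 in TC-71 parental and 214, 219 and 209 in TC-71-R. This was a rise of 1.79 (SE 0.03) in A4573 and 2.4 (SE 0.03) in TC-71, beside the fall of FLI1 in the same libraries.

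A second group of risen genes is known from neurons. IGSF21, a synaptic adhesion protein, had the largest shared rise of any named gene, from 2.85 (SD 0.357, n = 3) to 28.4 CPM (SD 1.0) in A4573 and from 0.0823 (SD 0.023) to 5.99 CPM (SD 0.721) in TC-71. In TC-71 parental it was close to the limit of detection, where 3 reads correspond to 0.0333 to 0.0362 CPM. NGEF, a neuronal guanine nucleotide exchange factor, stood at 3.65, 3.41 and 3.37 CPM in A4573 parental, 29.6, 32 and 31.9 in A4573-R, 23.6, 23.8 and 24.8 in TC-71 parental and 95.2, 99.9 and 93 in TC-71-R, and the A4573-R libraries only just passed the level of TC-71 parental. EEF1A2, the translation elongation factor of neurons and muscle, rose from 2.76 to 11 CPM in A4573 and from 16.8 to 67.2 CPM in TC-71, a ratio of 3.99 in each line. CAMK2N1, an inhibitor of the kinase CaMKII, changed by 1.3 in A4573 and 2.01 in TC-71, and SYP, the synaptic vesicle protein synaptophysin, by 1.48 in A4573 and 0.68 in TC-71. Neuronal genes did not rise as a class, however. Of 22 tested, 7 (31.8%) were called higher and 4 (18.2%) lower, against 26.5% and 25.1% of all genes. NEFL, a neurofilament subunit, fell from 27.6 to 14 CPM in A4573 and from 18.2 to 5.81 CPM in TC-71.

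CCNG2, an atypical cyclin linked to arrest, rose from 7.92 (SD 0.232, n = 3) to 24.6 CPM (SD 3.95) in A4573 and from 6.88 (SD 0.244) to 19.8 CPM (SD 0.525) in TC-71. TNFAIP8L1 rose by nearly the same amount in both lines, 1.34 (SE 0.05) in A4573 and 1.29 (SE 0.05) in TC-71, and FAM131B by 1.44 in A4573 and 1.77 in TC-71. CD24, a surface glycoprotein with processed copies elsewhere in the genome, rose from 34.5 to 92.3 CPM in A4573 and from 6.3 to 22 CPM in TC-71. MBD3L3 had a ratio of 81.6 in A4573 and 2.73 in TC-71, but it sits in a cluster of near-identical copies and its reads cannot be assigned with certainty.

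Genes that fell most in both lines include those of matrix proteins, guidance receptors and regulators of the mesenchymal state. COL24A1, a fibrillar collagen, stood at 31, 30.2 and 28.9 CPM in A4573 parental, 5.41, 5.78 and 5.48 in A4573-R, 24.3, 22.1 and 21.8 in TC-71 parental and 4.68, 5.91 and 3.65 in TC-71-R. The highest resistant library of either line was well below the lowest parental one, and the change was -2.24 (SE 0.10) in A4573 and -2.06 (SE 0.10) in TC-71. COL16A1, a collagen that associates with fibrils, fell from 282 (SD 5.01, n = 3) to 87.2 CPM (SD 1.69) in A4573 and from 44.7 (SD 0.497) to 4.55 CPM (SD 0.552) in TC-71. FBLN5, which organises elastic fibres, changed by -1.53 in A4573 and -1.64 in TC-71, OLFML3, a secreted olfactomedin-domain protein, by -1.23 in A4573 and -1.33 in TC-71, and SUSD5, which has a hyaluronan-binding link domain, by -1.4 in A4573 and -1.79 in TC-71.

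VGLL3, a cofactor of TEAD transcription factors, stood at 9.62, 9.64 and 10.8 CPM in A4573 parental, 0.579, 0.55 and 0.607 in A4573-R, 13.4, 11.4 and 11.9 in TC-71 parental and 3.14, 2.88 and 3.34 in TC-71-R. All resistant libraries were below all parental ones, and the resistant mean was 0.0578 of the parental mean in A4573 and 0.255 in TC-71. KCNE3, a potassium channel subunit, fell to a similar fraction in both lines, 0.32 of the parental mean in A4573 and 0.333 in TC-71. Its libraries stood at 81.7, 83.8 and 84.1 CPM in A4573 parental, 25, 26.5 and 28.5 in A4573-R, 52, 53.6 and 55.6 in TC-71 parental and 18.5, 15.8 and 19.4 in TC-71-R, and all were separated. MECOM, a zinc-finger transcription factor, fell from 24.6 to 6.75 CPM in A4573 and from 10.5 to 4.12 CPM in TC-71, and HS6ST2, which sulphates heparan chains, from 31.4 to 9.51 CPM in A4573 and from 14.1 to 5.47 CPM in TC-71. ADM, the vasodilator peptide adrenomedullin, fell to 0.0777 and 0.059 of the parental means.

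A pair of related receptors moved apart. UNC5A and UNC5B both bind netrin-1 and act as dependence receptors, which promote cell death when the ligand is missing. UNC5A rose from 3.39 (SD 0.156, n = 3) to 17.3 CPM (SD 0.402) in A4573 and from 1.32 (SD 0.112) to 5.86 CPM (SD 0.10) in TC-71. UNC5B stood at 75.2, 75.3 and 78.5 CPM in A4573 parental, 23.2, 23.2 and 21.7 in A4573-R, 219, 215 and 227 in TC-71 parental and 80.1, 80.5 and 79.4 in TC-71-R, a change of -1.71 (SE 0.03) in A4573 and -1.45 (SE 0.03) in TC-71.

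**Figure D2:**
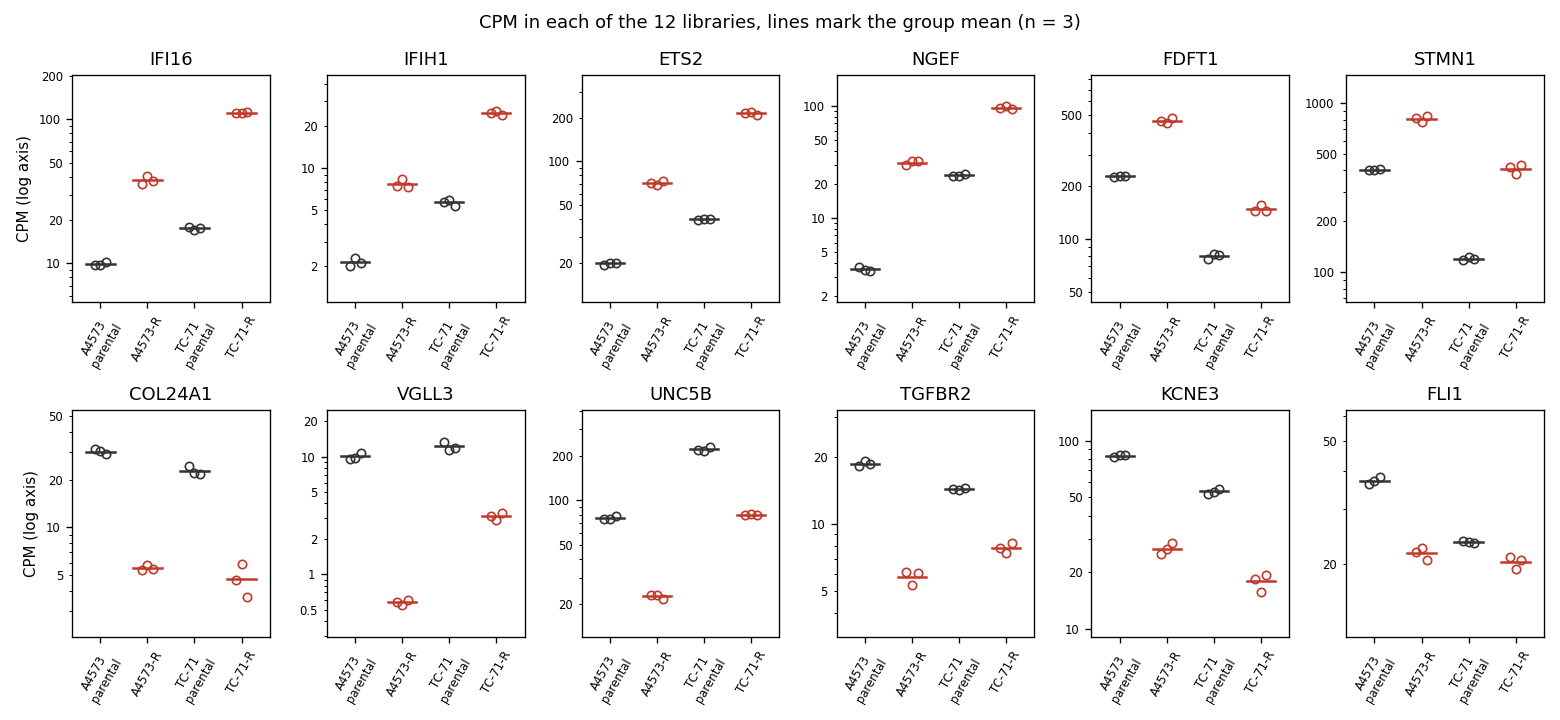
CPM of 12 kept genes in each of the 12 libraries, on a log axis that differs between panels. Open circles are single libraries, dark for parental and red for resistant, and lines mark the group means (n = 3). The 6 genes of the upper row are higher and the 6 of the lower row lower in both resistant lines, and FLI1 shows the smallest step, in TC-71.

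Most genes of mitosis rose in the common effect, and all 33 rose in TC-71. Of 33 tested, 28 were called higher and 0 lower (26.5% and 25.1% of all genes). There were 21 kept higher (63.6%) and 0 lower, against 17.5% and 15.4% of all genes. Another 6 separated in opposite directions, where the share over all genes, here and below, was 28.1%. Within the lines, A4573-R had 19 higher and 6 lower (38.3% and 34.1% of all genes), and TC-71-R had 33 higher and 0 lower (38.8% and 39.6% of all genes). In the common effect at an unadjusted p under 0.05, and with edgeR and DESeq2, 0 were lower as well. In bulk libraries a larger share of dividing cells and more of these RNAs per cell cannot be told apart. The median change was 0.82 in common, but 0.20 in A4573 and 1.40 in TC-71, against 0.00 over all genes. In A4573 the 33 genes summed to 4386 CPM (SD 42.7, n = 3) in the parent and 4932 CPM (SD 81.5) in A4573-R. In TC-71 they summed to 902 CPM (SD 11.8) in the parent and 2225 CPM (SD 33) in the derivative. TC-71 parental thus had the lowest level, and TC-71-R remained below A4573 parental.

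PTTG1, the securin that holds back the separation of chromatids, stood at 62.4, 67.7 and 66.1 CPM in A4573 parental, 121, 122 and 127 in A4573-R, 8.74, 9.73 and 9.3 in TC-71 parental and 44, 46.3 and 46.6 in TC-71-R. NDC80, a kinetochore protein that binds microtubules, changed by 0.73 (SE 0.06) in A4573 and 1.59 (SE 0.06) in TC-71, and KIF2C, a kinesin that takes microtubules apart, by 0.71 (SE 0.03) in A4573 and 1.32 (SE 0.03) in TC-71. CCNB2, a mitotic cyclin, rose from 74.6 (SD 0.244, n = 3) to 113 CPM (SD 2.79) in A4573 and from 12 (SD 0.482) to 26.5 CPM (SD 0.452) in TC-71, and DLGAP5, which stabilises spindle fibres, from 59.6 (SD 1.19, n = 3) to 89.9 CPM (SD 2.1) in A4573 and from 7.32 (SD 0.167) to 35.4 CPM (SD 1.18) in TC-71. The motor KIF11 and the midzone kinesin KIF23 did not share the direction. KIF11 changed by -0.61 in A4573 and 1.4 in TC-71, and KIF23 by -0.83 in A4573 and 0.71 in TC-71.

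Cell cycle genes of this class carry CCAAT boxes and a cell cycle homology region (CHR) near their start sites. The 250 bases before the RefSeq start (GRCh38.p14) are shown for 2 kept members to place these elements beside the expression values. CCNB2 lies at chr15:59104896-59105145 on the plus strand and DLGAP5 at chr14:55191586-55191835 on the minus strand, and each is printed 5′ to 3′ along its gene. Capitals mark CCAAT or TTTGAA on either strand.
CCNB2: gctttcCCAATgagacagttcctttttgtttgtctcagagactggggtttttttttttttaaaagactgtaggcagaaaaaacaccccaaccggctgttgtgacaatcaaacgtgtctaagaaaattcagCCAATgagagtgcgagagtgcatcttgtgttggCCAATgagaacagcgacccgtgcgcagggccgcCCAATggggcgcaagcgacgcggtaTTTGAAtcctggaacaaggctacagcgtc
DLGAP5: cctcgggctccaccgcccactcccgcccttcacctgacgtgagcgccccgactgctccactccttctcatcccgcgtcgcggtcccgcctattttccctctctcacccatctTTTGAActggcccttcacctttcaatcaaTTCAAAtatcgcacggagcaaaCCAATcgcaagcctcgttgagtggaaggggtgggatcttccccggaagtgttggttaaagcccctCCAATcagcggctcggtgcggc
In CCNB2 the TTTGAA begins 29 bases before the start, downstream of 4 CCAAT matches. DLGAP5 has the other order, with TTTGAA and its reverse complement 138 and 109 bases before the start, upstream of CCAAT matches at 87 and 22. Of 27 mitosis genes with a RefSeq promoter, 14 (51.9%) held TTTGAA and 21 (77.8%) CCAAT, against 8.3% and 35.1% of the 10469 tested genes with one. Among the 17 kept members 8 held TTTGAA, and among the 10 others 6 did. Over all kept higher genes the share with TTTGAA was 8.6%, and over all kept lower genes 6.9%.

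Most tubulins, the subunits of microtubules, were higher in both resistant lines. Of 15 tested, 10 (66.7%) were called higher and 1 (6.7%) lower, against 26.5% and 25.1% of all genes. The kept members were 10 higher and 1 lower, against 17.5% and 15.4% of all genes, and 2 separated in opposite directions. Each resistant line by itself had 11 called higher and 2 lower. For single lines, here and below, 34.1% to 39.6% of all genes were called in each direction. The median change was 0.43 in A4573 and 0.83 in TC-71. TUBA1A, an alpha-tubulin abundant in neurons, stood at 161, 159 and 155 CPM in A4573 parental, 895, 815 and 913 in A4573-R, 54.4, 54.4 and 57.4 in TC-71 parental and 158, 148 and 172 in TC-71-R. TUBB4A rose from 61.8 (SD 0.968, n = 3) to 118 CPM (SD 5.39) in A4573 and from 26.6 (SD 0.631) to 75.2 CPM (SD 3.62) in TC-71, and TUBB2B from 22.9 (SD 0.425, n = 3) to 112 CPM (SD 1.7) in A4573 and from 17.6 (SD 0.36) to 30.3 CPM (SD 4.16) in TC-71. TUBB2A and TUBB2B are near-identical in sequence, and reads of one may have been counted for the other. TUBA4A was the kept member that fell, with 56.2, 56.2 and 56.6 CPM in A4573 parental, 33.9, 30.1 and 36.4 in A4573-R, 2.73, 2.63 and 2.88 in TC-71 parental and 0.563, 0.498 and 0.619 in TC-71-R. It fell in both lines, with a change of -0.74 (SE 0.06) in A4573 and -1.27 (SE 0.06) in TC-71.

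Proteins that bind tubulin moved in part with them. STMN1, or stathmin, which sequesters tubulin dimers, stood at 400.2, 405 and 409 CPM in A4573 parental, 814, 778 and 835 in A4573-R, 118, 123 and 119.6 in TC-71 parental and 419, 382 and 429.7 in TC-71-R, a ratio of 2.0 in A4573 and 3.42 in TC-71. CRMP1 and DPYSL5, 2 members of the collapsin response mediator family, rose mainly in opposite lines, CRMP1 by 2.04 in A4573 and 0.38 in TC-71 and DPYSL5 by 0.37 in A4573 and 3.0 in TC-71. DCX, the microtubule protein doublecortin, rose from 43.6 to 53 CPM in A4573 and from 0.91 to 3.3 CPM in TC-71. Of the 26 stathmins and microtubule-associated proteins tested, 11 (42.3%) were called higher and 3 (11.5%) lower, against 26.5% and 25.1% of all genes. The kept members were 6 higher (23.1%) and 2 lower (7.7%), against 17.5% and 15.4% of all genes, and 6 separated in opposite directions. A4573-R had 17 higher and 3 lower, with a median of 0.26, but TC-71-R had 8 and 11, with a median of -0.04.

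Genes of cholesterol synthesis and its control rose in both lines. Of 24 tested, 17 (70.8%) were called higher and 1 (4.2%) lower, against 26.5% and 25.1% of all genes. The kept members were 13 higher (54.2%) and 0 lower, against 17.5% and 15.4% of all genes. The median change was 0.44 in A4573 and 0.58 in TC-71. FDFT1, or squalene synthase, stood at 223, 227 and 228 CPM in A4573 parental, 465, 452 and 484 in A4573-R, 77.1, 82.2 and 80.8 in TC-71 parental and 143, 156 and 144 in TC-71-R, a change of 1.04 (SE 0.04) in A4573 and 0.88 (SE 0.04) in TC-71. All 3 resistant libraries of each line were above all 3 of its parent. EBP, a sterol isomerase, changed by 0.89 (SE 0.04) in A4573 and 0.89 (SE 0.04) in TC-71, and FDPS, which makes farnesyl diphosphate, by 0.62 (SE 0.04) in A4573 and 1.21 (SE 0.04) in TC-71. TM7SF2, a sterol reductase, rose from 4.79 (SD 0.27, n = 3) to 15 CPM (SD 0.408) in A4573 and from 11.6 (SD 0.411) to 22.4 CPM (SD 1.19) in TC-71. NSDHL was the 1 member that separated in opposite directions, with -0.27 in A4573 and 0.68 in TC-71.

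The TM7SF2 promoter at chr11:65111622-65111871 on the plus strand is shown because CCAAT boxes, bound by NF-Y, accompany the sterol response elements of many of these genes. Capitals mark CCAAT on either strand.
TM7SF2: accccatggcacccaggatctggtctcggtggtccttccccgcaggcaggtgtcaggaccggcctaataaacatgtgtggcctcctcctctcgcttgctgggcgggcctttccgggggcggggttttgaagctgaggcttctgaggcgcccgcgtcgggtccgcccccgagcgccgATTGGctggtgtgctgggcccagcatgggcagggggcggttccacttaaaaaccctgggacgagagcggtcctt
Of the 18 genes of the list with a RefSeq promoter, 15 (83.3%) held CCAAT in this window, 10 of the 11 kept members and 5 of the 7 others.

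Most genes for structural proteins of the ribosome and respiratory chain rose by small amounts. Of 45 cytosolic ribosomal protein genes, 32 (71.1%) were called higher and 1 (2.2%) lower, against 26.5% and 25.1% of all genes. The kept members were 22 higher (48.9%) and 1 lower, against 17.5% and 15.4% of all genes, and 7 separated in opposite directions. A4573-R had 27 called higher and 8 lower, with a median change of 0.19, and TC-71-R had 36 and 3, with a median of 0.60. Many of these genes have processed copies that can take or lend reads. RPS3A, of the small subunit, stood at 514, 520.0 and 510.3 CPM in A4573 parental, 639, 623 and 662 in A4573-R, 503, 594 and 498 in TC-71 parental and 995, 951 and 967 in TC-71-R, and RPL7, of the large subunit, rose from 739.7 to 940.3 CPM in A4573 and from 494 to 797 CPM in TC-71. The kept member that fell was RPLP1, a stalk protein, which fell from 772 to 614 CPM in A4573 and from 1059.7 to 637 CPM in TC-71. Of 37 nuclear genes of oxidative phosphorylation, 22 (59.5%) were called higher and 3 (8.1%) lower, and 17 (45.9%) were kept higher and 1 (2.7%) lower. COX6C, a subunit of cytochrome oxidase, changed by 0.41 in A4573 and 0.67 in TC-71 and COX7A2 by 0.71 in A4573 and 0.29 in TC-71, while COX5A, the kept member that fell, changed by -0.37 in A4573 and -0.34 in TC-71. RPLP1 and COX5A both lie on chromosome 15, described below. Other kept genes named in the text also lie there, such as AEN, which fell, and CCNB2, which rose. Whether the position plays a part was not tested. The 13 mitochondrially encoded genes gave 0 calls in common in either direction with limma, also at an unadjusted p under 0.05, and 0 with edgeR and DESeq2, although 4 were called higher in TC-71-R and 2 lower in A4573-R.

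Genes that build ribosomes fell in A4573 and were mixed in TC-71. Of 40 genes of ribosome biogenesis and MYC, 1 (2.5%) was called higher and 19 (47.5%) lower in common, against 26.5% and 25.1% of all genes. The genes kept lower were 15 (37.5%, against 15.4% of all genes), and 13 separated in opposite directions. A4573-R had 2 higher and 32 lower, with a median of -0.35, and TC-71-R had 15 and 18, with a median of -0.03. The summed level was 7331 CPM in A4573 parental and 5678 in A4573-R, while in TC-71 it went from 5184 to 6044 CPM. UTP20, part of the small-subunit processome, stood at 184, 186 and 185 CPM in A4573 parental, 130.0, 107 and 121 in A4573-R, 143, 145 and 143 in TC-71 parental and 98.9, 98.8 and 100.1 in TC-71-R. NOP2, an rRNA methyltransferase, changed by -0.63 (SE 0.06) in A4573 and -0.51 (SE 0.06) in TC-71, and WDR43, another processome protein, by -0.70 in A4573 and -0.38 in TC-71. MYCN was the 1 member that rose, from a low level, 0.944 to 4.94 CPM in A4573 and from 0.506 to 1.22 CPM in TC-71.

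RNA helicases of the DEAD and DEAH box families, to which DHX9 belongs, fell for the most part in A4573 and were mixed in TC-71. Of 48 tested, 5 were called higher and 22 lower in common (26.5% and 25.1% of all genes). There were 2 kept higher (4.2%) and 18 lower (37.5%), against 17.5% and 15.4% of all genes. Another 13, DHX9 among them, separated in opposite directions, as did 28.1% of all genes. A4573-R had 3 higher and 34 lower, with a median of -0.23, and TC-71-R had 18 and 21, with a median of -0.02. DDX21, a nucleolar helicase, stood at 328, 338 and 349 CPM in A4573 parental, 191, 174 and 190.0 in A4573-R, 314, 311 and 311 in TC-71 parental and 198, 193 and 195 in TC-71-R, a change of -0.87 (SE 0.04) in A4573 and -0.67 (SE 0.04) in TC-71. DDX51 and DDX55, both involved in large-subunit assembly, changed by -0.54 in A4573 and -0.68 in TC-71 and by -0.48 in A4573 and -0.56 in TC-71. DDX60, an interferon-inducible helicase, was kept higher, with 0.894 to 1.43 CPM in A4573 and from 3.47 to 5.1 CPM in TC-71.

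In the common effect, chaperones of the endoplasmic reticulum fell or did not pass. Of 20 tested, limma called 0 higher and 11 (55%) lower, against 26.5% and 25.1% of all genes. There were 0 higher also at an unadjusted p under 0.05 and with edgeR and DESeq2. The genes kept lower were 8 (40%, against 15.4% of all genes), and 7 separated in opposite directions. A4573-R had 3 called higher and 15 lower, and TC-71-R 4 and 11. HSPA5, the chaperone BiP, stood at 469.7, 455 and 449 CPM in A4573 parental, 279.6, 239 and 319 in A4573-R, 505, 537 and 499 in TC-71 parental and 334, 278 and 319 in TC-71-R. The highest A4573-R library, the third, was still far below the lowest parental one, and the change was -0.72 (SE 0.08) in A4573 and -0.73 (SE 0.08) in TC-71. DNAJC3 and PDIA3 changed by -0.50 in A4573 and -0.35 in TC-71 and by -0.34 in A4573 and -0.65 in TC-71. CALR, or calreticulin, lay on opposite sides, with -0.57 in A4573 and 0.39 in TC-71.

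**Figure D3:**
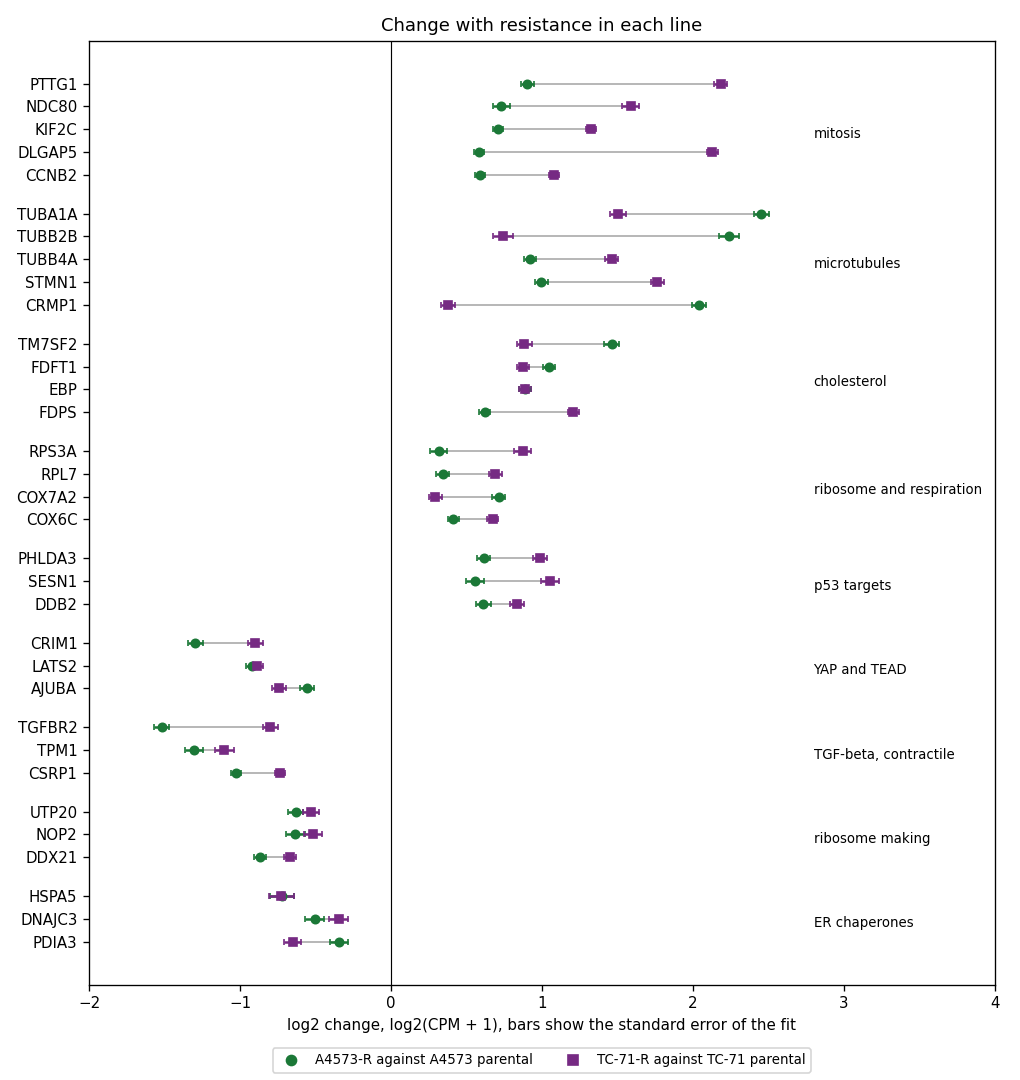
Log2 change of 33 kept genes in A4573 (green circles) and TC-71 (purple squares), on the log2(CPM + 1) scale, with the standard error of the fit as bars. The genes were picked, and kept members of the same lists that went the other way, such as ACTG2, BMP6 and AEN, are left out. Both symbols of each gene lie on the same side of 0, as the rule requires, and their distance apart shows how far the lines differ in size, from almost none for EBP and HSPA5 to well over 1 for DLGAP5, TUBB2B and CRMP1.

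Targets of YAP and TEAD, transcription regulators that respond to cell contact and tension, fell for the most part in both lines. Of 22 tested, 1 (4.5%) was called higher and 14 (63.6%) lower, against 26.5% and 25.1% of all genes. The kept members were 1 higher and 13 lower (59.1%), against 17.5% and 15.4% of all genes, and 5 separated in opposite directions. A4573-R had 3 higher and 17 lower, and TC-71-R 5 and 16. The median change was -0.54 in A4573 and -0.34 in TC-71. LATS2, both a target of YAP and the kinase that restrains it, stood at 17.4, 16.3 and 17.1 CPM in A4573 parental, 8.32, 8.31 and 8.92 in A4573-R, 26.5, 26 and 26.6 in TC-71 parental and 13.7, 13.7 and 13.9 in TC-71-R. It fell to about the same fraction in each line, 0.502 and 0.522 of the parental mean. CRIM1, a transmembrane protein that binds BMPs, fell from 16.6 (SD 0.661, n = 3) to 6.18 CPM (SD 0.456) in A4573 and from 24.3 (SD 0.395) to 12.6 CPM (SD 0.471) in TC-71, and AJUBA, a LIM protein of cell junctions, changed by -0.56 in A4573 and -0.74 in TC-71. The well-known targets CTGF and AXL went opposite ways, CTGF by -2.0 in A4573 and 0.88 in TC-71 and AXL by 0.98 in A4573 and -1.06 in TC-71.

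TGF-beta and BMP genes were mixed. Of 28 tested, 5 (17.9%) were called higher and 10 (35.7%) lower in common, against 26.5% and 25.1% of all genes. There were 4 kept higher (14.3%) and 9 lower (32.1%), against 17.5% and 15.4% of all genes. Another 11 separated in opposite directions, against 28.1% of all genes. A4573-R had 7 higher and 17 lower, and TC-71-R 10 and 14. Their summed level was 714 CPM in A4573 parental and 597 in A4573-R, while in TC-71 it went from 796 to 897 CPM. TGFBR2, the type II TGF-beta receptor, which EWS-FLI1 is known to repress, stood at 18.1, 19 and 18.5 CPM in A4573 parental, 6.08, 5.34 and 6.05 in A4573-R, 14.4, 14.2 and 14.4 in TC-71 parental and 7.79, 7.45 and 8.25 in TC-71-R. BMP6, a ligand of the family, rose from 1.36 to 4.63 CPM in A4573 and from 10.6 to 19.4 CPM in TC-71. Contractile genes were mixed, with 7 of 21 (33.3%) called higher and 3 (14.3%) lower. Their kept members were 7 higher (33.3%, against 17.5% of all genes) and 2 lower (9.5%, against 15.4%). On opposite sides lay 9 more. TPM1, a tropomyosin, fell from 23.8 (SD 0.35, n = 3) to 9.04 CPM (SD 0.807) in A4573 and from 10.9 (SD 0.258) to 4.55 CPM (SD 0.41) in TC-71, and CSRP1, a LIM protein of smooth muscle, changed by -1.02 in A4573 and -0.74 in TC-71. ACTG2, a smooth muscle actin, rose from 0.11 to 9.6 CPM in A4573 and from 0.0575 to 1.32 CPM in TC-71.

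The collagens did not follow COL24A1 and COL16A1 as a class. Of 28 tested, 7 (25%) were called higher and 9 (32.1%) lower, against 26.5% and 25.1% of all genes. The kept members were 5 higher (17.9%) and 7 lower (25%), against 17.5% and 15.4% of all genes. COL3A1 fell from 285 to 207 CPM in A4573 and from 69.5 to 31.2 CPM in TC-71, while COL18A1 and COL6A2 rose by 0.90 in A4573 and 0.85 in TC-71 and by 0.67 in A4573 and 0.83 in TC-71. Of 42 other matrix and adhesion genes, 5 (11.9%) were called higher and 14 (33.3%) lower, but 19 separated in opposite directions, against 28.1% of all genes. The summed fibroblast markers given above, which include COL3A1, were lower in A4573-R and higher in TC-71-R than in their parents, and their part in these changes was not tested.

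Interferon-response genes rose in part, mainly in TC-71. Of 22 tested, 10 (45.5%) were called higher and 2 (9.1%) lower, against 26.5% and 25.1% of all genes. The kept members were 6 higher (27.3%) and 1 lower (4.5%), against 17.5% and 15.4% of all genes. In opposite directions 8 separated, and the medians were 0.03 in A4573 and 0.75 in TC-71. A4573-R had 6 higher and 9 lower, and TC-71-R 18 and 2. OAS3, an enzyme activated by double-stranded RNA, stood at 0.997, 1.15 and 1.4 CPM in A4573 parental, 2.31, 1.96 and 1.96 in A4573-R, 0.0716, 0.0845 and 0.133 in TC-71 parental and 3.47, 3.37 and 4.07 in TC-71-R. IFI6, an interferon-induced membrane protein, changed by 0.46 in A4573 and 2.14 in TC-71. IFI44L fell instead, from 18.1 to 12.5 CPM in A4573 and from 1.18 to 0.376 CPM in TC-71, and IFITM3, a membrane protein that blocks virus entry, changed by -1.28 in A4573 and 1.32 in TC-71.

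The promoter of IFIH1, at chr2:162318685-162318934 on the minus strand, is shown because it holds the interferon-stimulated response element. Capitals mark GAAA, any 2 bases and a further GAAA on either strand, and 2 of its 3 matches overlap.
IFIH1: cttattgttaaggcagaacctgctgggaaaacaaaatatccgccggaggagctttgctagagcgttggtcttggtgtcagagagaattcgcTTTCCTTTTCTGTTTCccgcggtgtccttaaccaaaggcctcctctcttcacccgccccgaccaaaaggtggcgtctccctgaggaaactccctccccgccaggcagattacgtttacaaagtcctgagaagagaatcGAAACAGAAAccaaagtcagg
This motif was found in 11 of 16 promoters of the list (68.8%) and in 2.3% of all 10469. It was found in 4 of the 5 kept higher members, in the 1 kept lower member and in 6 of the 10 others, and in 2.6% of all kept higher genes.

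The p53 targets changed on both sides. Of 24 tested, 9 (37.5%) were called higher and 7 (29.2%) lower, against 26.5% and 25.1% of all genes. The kept members were 8 higher (33.3%) and 4 lower (16.7%), against 17.5% and 15.4% of all genes, and 6 separated in opposite directions. PHLDA3, an inhibitor of AKT, stood at 6.7, 6.32 and 6.43 CPM in A4573 parental, 10.5, 9.98 and 10.9 in A4573-R, 20.8, 23 and 21.8 in TC-71 parental and 44.1, 44.9 and 43.9 in TC-71-R. SESN1 and DDB2, which act in stress signalling and DNA repair, changed by 0.56 in A4573 and 1.05 in TC-71 and by 0.61 in A4573 and 0.84 in TC-71, and TP53INP1 by 0.88 in A4573 and 0.59 in TC-71. CDKN1A, the inhibitor p21, was low throughout, 0.213, 0.314 and 0.253 CPM in A4573 parental, 0.81, 0.825 and 0.75 in A4573-R, 1.37, 1.61 and 1.44 in TC-71 parental and 2.67, 1.99 and 2.68 in TC-71-R. AEN, a nuclease of the same class of targets, fell from 58.4 to 36 CPM in A4573 and from 37.3 to 15.9 CPM in TC-71.

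Among regulators of the G1 phase, CDK6 fell and its inhibitor CDKN2C rose. CDK6, a kinase that drives entry into S phase, stood at 11.8, 12 and 12.6 CPM in A4573 parental, 7.1, 5.75 and 6.03 in A4573-R, 16.5, 15.1 and 16.3 in TC-71 parental and 5.43, 5.32 and 5.23 in TC-71-R. CDKN2C, the inhibitor p18, changed by 0.18 in A4573 and 1.92 in TC-71. E2F2, a transcription factor released at this step, rose from 3.79 to 8.05 CPM in A4573 and from 1.37 to 3.45 CPM in TC-71. Of 19 G1 cyclins and inhibitors tested, 4 (21.1%) were called higher and 6 (31.6%) lower, against 26.5% and 25.1% of all genes. There were 3 kept higher (15.8%) and 2 lower (10.5%), against 17.5% and 15.4% of all genes. On opposite sides lay 4, among them CCND1, with -0.86 in A4573 and 0.38 in TC-71, and CCNE1, with -0.67 and 0.66.

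Growth factor genes changed on both sides. INSR, the insulin receptor, which Ewing cells can use in place of the IGF1 receptor, stood at 17.4, 17.7 and 18.8 CPM in A4573 parental, 33.5, 31.9 and 32.3 in A4573-R, 12.8, 11.9 and 11.9 in TC-71 parental and 23.6, 20.4 and 22.4 in TC-71-R, a ratio of 1.82 in A4573 and 1.82 in TC-71. IGF1 fell from 7.5 to 5.04 CPM in A4573 and from 12.1 to 8.78 CPM in TC-71. The binding proteins moved apart, since IGFBP4 fell from 189.9 to 102 CPM in A4573 and from 34.8 to 22.1 CPM in TC-71 and IGFBP3 rose from 25 to 34 CPM in A4573 and from 0.567 to 7.56 CPM in TC-71. FGFR3 rose from 10.6 (SD 0.233, n = 3) to 17 CPM (SD 2.13) in A4573 and from 25.4 (SD 0.589) to 70.1 CPM (SD 1.26) in TC-71, while SPRED1, an inhibitor of RAS signalling, changed by -0.57 in A4573 and -1.4 in TC-71 and the ligand FGF2 by -0.35 in A4573 and -1.21 in TC-71. DUSP4, a phosphatase that limits ERK, rose from a very low level, 0.28 to 1.47 CPM in A4573 and from 0.0779 to 1.08 CPM in TC-71. Of 17 genes of the IGF axis, 4 (23.5%) were called higher and 8 (47.1%) lower, against 26.5% and 25.1% of all genes. For 19 FGF receptors and ERK feedback genes these were 6 (31.6%) and 5 (26.3%).

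Developmental pathways gave no single direction. In the WNT list of 36, 9 (25%) were called higher and 15 (41.7%) lower, against 26.5% and 25.1% of all genes. The kept members were 6 higher (16.7%) and 8 lower (22.2%), against 17.5% and 15.4% of all genes. WNT5A, a ligand of the non-canonical branch, fell from 103 (SD 2.99, n = 3) to 68.7 CPM (SD 3.39) in A4573 and from 50.3 (SD 0.341) to 8.8 CPM (SD 0.365) in TC-71. NKD2 and NOTUM, 2 antagonists of the pathway, changed by 1.09 in A4573 and 0.83 in TC-71 and by 0.56 in A4573 and 1.2 in TC-71. In the Notch list of 19, 8 (42.1%) were called higher and 4 (21.1%) lower. The effectors HES4 and HEYL rose, HES4 from 7.11 to 32.5 CPM in A4573 and from 19.7 to 31.7 CPM in TC-71 and HEYL from 7.13 to 29.7 CPM in A4573 and from 5.49 to 9.08 CPM in TC-71, while the ligand JAG1 and the effector HEY1 fell, JAG1 with a log2 change of -0.27 in A4573 and -1.04 in TC-71 and HEY1 of -0.56 in A4573 and -1.02 in TC-71. In the Hedgehog list of 15, 2 (13.3%) were called higher and 4 (26.7%) lower. PTCH1, receptor and target of the pathway, changed by 0.43 in A4573 and 0.57 in TC-71, but GLI1, its usual readout, went opposite ways, with 2.34 in A4573 and -0.94 in TC-71.

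Lists of EWS-FLI1 targets showed no shared direction beside the fall of FLI1. Of 37 activated targets, 12 (32.4%) were called higher and 8 (21.6%) lower, against 26.5% and 25.1% of all genes. The kept members were 6 higher and 6 lower (16.2% each), against 17.5% and 15.4% of all genes, and 16 separated in opposite directions. Of 25 repressed targets, 5 (20%) were called higher and 7 (28%) lower, and 5 (20%) were kept higher and 3 (12%) lower. CAV1, or caveolin, an activated target, fell from 623 (SD 18.2, n = 3) to 323 CPM (SD 10.4) in A4573 and from 427 (SD 6.42) to 305 CPM (SD 31.7) in TC-71. EZH2, the histone methyltransferase and also an activated target, changed by -0.33 in A4573 and -0.22 in TC-71, and BCL11B by 0.51 in A4573 and 0.39 in TC-71.

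Some stress and cycle genes changed strongly but not together. Of 35 ATF4 targets and genes of the integrated stress response, which halts translation and raises amino acid supply, 23 separated in opposite directions, against 28.1% of all genes. The median was 0.63 in A4573 and -1.54 in TC-71. CHAC1, a glutathione-degrading enzyme, stood at 4.73, 4.61 and 4.55 CPM in A4573 parental, 44.3, 103 and 43.5 in A4573-R, 57.6, 54.3 and 57.6 in TC-71 parental and 7.83, 8.38 and 7.84 in TC-71-R. The second A4573-R library was above the other 2 by a wide margin, as it was for SESN2, with 67.5, 132 and 57.3 CPM in A4573-R. Only 2 members (5.7%) were kept higher and 1 (2.9%) lower, against 17.5% and 15.4% of all genes. ATF4 itself was kept higher, with 0.76 in A4573 and 0.16 in TC-71. KLHL24, an adaptor of ubiquitin ligases, was kept higher too, with 1.51 in A4573 and 0.48 in TC-71. XPOT, which exports tRNA from the nucleus, was kept lower, with -0.16 in A4573 and -1.23 in TC-71. Of 37 genes of S phase, 12 (32.4%) were called higher and 1 (2.7%) lower, against 26.5% and 25.1% of all genes. But 19 lay on opposite sides, such as the flap endonuclease FEN1, with -0.52 in A4573 and 0.99 in TC-71. Of 55 splicing factors and hnRNPs, 9 (16.4%) were called higher and 16 (29.1%) lower. The kept members were 1 higher (1.8%) and 9 lower (16.4%), against 17.5% and 15.4% of all genes.

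Drug transporters did not rise together. Of 10 ABC transporters and related genes tested, 2 were called higher and 2 lower (20% each), against 26.5% and 25.1% of all genes. The kept members were 2 higher (20%) and 1 lower (10%), against 17.5% and 15.4% of all genes. ABCB1, the efflux pump P-glycoprotein, fell in TC-71-R, from 6.05, 5.98 and 5.57 to 1.24, 1.28 and 1.4 CPM. In A4573 parental it was at 0.239, 0.198 and 0.169 CPM and in the 3 A4573-R libraries at 0, where 3 reads correspond to 0.0375 to 0.0434 CPM. ABCA2 rose by 0.21 in A4573 and 0.21 in TC-71.

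The other lists gave these counts of called members, where 26.5% of all genes were called higher and 25.1% lower. Of 20 aminoacyl-tRNA synthetases 1 (5%) was higher and 7 (35%) lower. For 22 NRF2 targets and aldo-keto reductases these were 7 (31.8%) and 5 (22.7%), and for 18 BCL2 family genes 6 (33.3%) and 3 (16.7%). Of 29 glycolysis and hypoxia genes 12 (41.4%) were higher and 7 (24.1%) lower. For 15 genes of MHC class I presentation these were 8 (53.3%) and 2 (13.3%), and for 32 lysosome and autophagy genes 7 (21.9%) and 8 (25%). The MHC class I calls came mainly from TC-71-R, with 10 higher and 1 lower, while A4573-R had 4 and 5. Only 2 of these MHC genes (13.3%) were kept higher and 1 (6.7%) lower, against 17.5% and 15.4% of all genes, and 4 separated in opposite directions. Of 32 HOX genes 11 (34.4%) were higher and 4 (12.5%) lower. For 43 chromatin regulators these were 14 (32.6%) and 10 (23.3%), and for 16 imprinted genes 4 (25%) and 3 (18.8%).

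**Figure D4:**
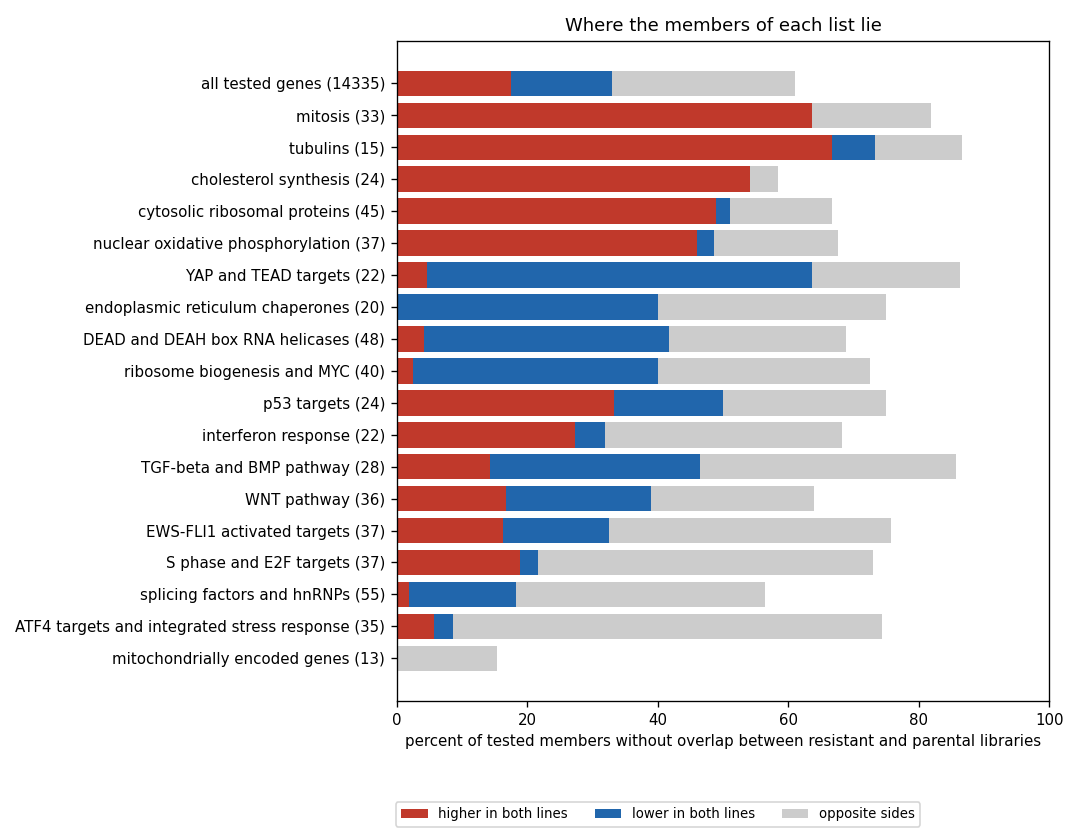
Percent of the tested members of each list (number in brackets) that were higher in both lines (red), lower in both (blue) or separated on opposite sides (grey), with all tested genes in the top bar. Mitosis, tubulins and cholesterol synthesis have red shares of 54.2% to 66.7% against 17.5% of all genes, YAP and TEAD targets have a blue share of 59.1% against 15.4%, and the ATF4 list is mostly grey.

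A shared direction did not mean a shared size. The change differed between lines (limma, adjusted p under 0.05) in 3047 of the 4720 kept genes, 64.6%, against 78.1% of all tested genes. Of these, 1022 higher and 826 lower genes changed more in TC-71, and 637 higher and 562 lower genes more in A4573. COL21A1, a fibril-associated collagen, had the widest gap among kept genes with at least 5 CPM in the higher group of each line. It stood at 83, 81.3 and 82.9 CPM in A4573 parental, 63.9, 61.6 and 56.7 in A4573-R, 64.7, 64.3 and 63.8 in TC-71 parental and 1.61, 1.49 and 1.41 in TC-71-R. PARVA, a focal adhesion protein, changed by -0.65 in A4573 and -3.05 in TC-71, ITPR2, a calcium release channel, by -0.36 in A4573 and -2.81 in TC-71, and ACSS3, a short-chain acyl-CoA synthetase, by -0.34 in A4573 and -2.83 in TC-71. Among the risen genes NDRG1, a stress-responsive gene, and SELENOP, a carrier of selenium, changed little in A4573, NDRG1 with 0.14 in A4573 and 2.95 in TC-71 and SELENOP with 0.23 in A4573 and 2.78 in TC-71.

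Kept genes at the edge of the rule had groups that nearly touched, some closer than the digits printed. In EPHA1-AS1 the A4573 groups were 0.0399, 0.0582 and 0.0723 CPM in the parent and 0.0723, 0.0875 and 0.116 in A4573-R. This is an antisense gene, and without a stated strand setting its reads cannot be told from those of EPHA1. In FBXL17 they were 6.71, 7.02 and 7.37 and 6.49, 6.71 and 6.71 CPM, and in ZNF865 the TC-71 groups were 14.8, 14.5 and 13.4 and 15.8, 17.8 and 14.8 CPM. The nearest genes outside, such as ABCC6P1 and AC007128.1, had a gap of 0 because they were at 0 in all 6 libraries of 1 line.

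The share of genes kept varied between chromosomes. On chromosome 15, 185 of 454 tested genes (40.7%) were kept lower and 26 (5.7%) higher, and the median change of all its genes was -0.14 in A4573 and -0.43 in TC-71. The share kept lower was 56% in the fifth of 6 equal groups of its genes by position, from 75195643 to 84806432 (GRCh38), where the medians were -0.44 and -0.40. Chromosomes 12, 13 and 20 had 25.8%, 24.8% and 24.2% of genes kept lower, against 15.4% of all genes. Shares kept higher were largest on chromosome 19, with 29.5% of 988 genes, on 6, with 26.6%, on 22, with 26.2%, and on 4, with 25.3%. On chromosome 12 the median was 0.01 in A4573 and -0.30 in TC-71, and on 13 it was 0.01 and -0.51, so there the fall was mainly in TC-71. For chromosome 6 it was 0.25 in A4573 and 0.01 in TC-71, and for 4 it was 0.12 and 0.01, so there the median rose mainly in A4573.

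**Figure D5:**
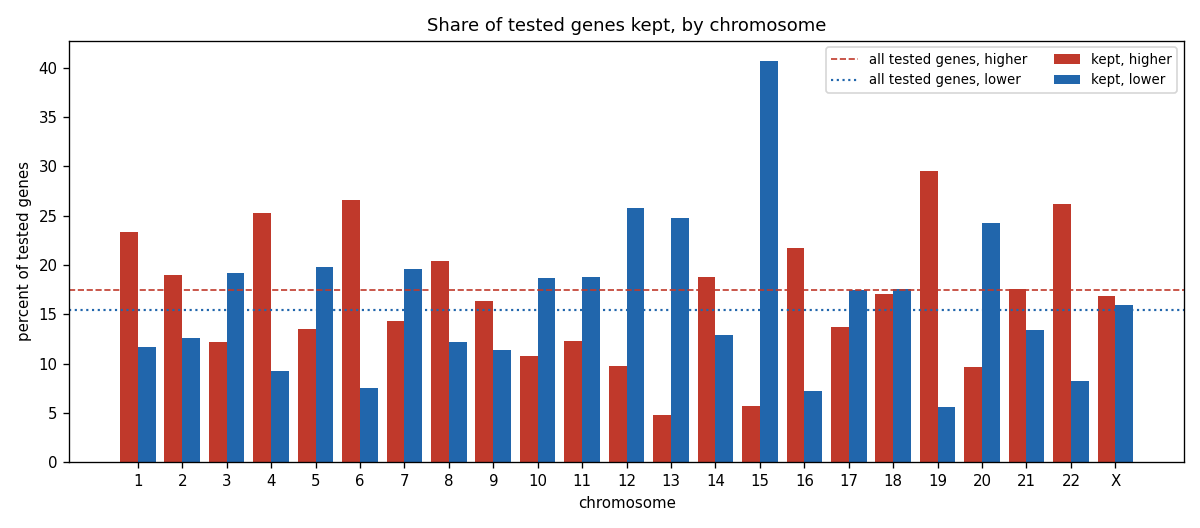
Percent of the tested genes of each chromosome that were kept higher (red) or kept lower (blue), with the shares over all tested genes, 17.5% and 15.4%, as dashed and dotted lines. Chromosome 15 has the tallest blue bar, 40.7%, and chromosome 19 the tallest red one, 29.5%.

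Length and base composition were compared between kept higher and kept lower genes. Among protein-coding genes the median gene length was 26.1 kb for the 2310 kept higher, 46.7 kb for the 2076 kept lower and 34.8 kb for all 12720. The median GC content of their transcripts was 52.1%, 45.3% and 48.0%. From the shortest to the longest 20% of genes, the share kept higher fell from 23.5% to 14.2% and the share kept lower rose from 11.5% to 20.3%. Of 314 lincRNAs, 12.1% were kept higher and 5.1% lower, against 18.2% and 16.3% of protein-coding genes. With the trend on GC content and exon length removed, 3889 of the 4720 genes were kept.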

How the data were processed

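Total RNA of 12 libraries was sequenced as paired ends of 100 bases from TruSeq RNA libraries, per the labels' protocols. The submitters' processing notes name GRCh38 and the tools Trimmomatic, STAR 2.4, HTSeq and edgeR, without their roles. The deposited signal is CPM on library sizes scaled by the authors, and 100% of values divided by their step were whole within 0.001, so reads could be recovered. In each library 30.6% to 42.0% of reads lay in 5 entries with no gene name, which were set aside. The 1932 named entries that share 253 symbols were summed, which left 56609 symbols, and 14335 with at least 1 CPM in at least 3 libraries were tested.

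On log2(CPM + 1), limma 3.58.1 (R 4.3.3, trend on mean expression) was fitted with line as covariate for the common effect, and with 4 group means for each line and the difference. P-values were adjusted by Benjamini-Hochberg over all tested genes, with a threshold of 0.05. Called genes are written as risen, fallen, higher or lower, and kept genes follow the rule of the opening. The kept genes, the 39 lists and the tests were chosen with earlier results of these data known. Lists hold 1162 entries (28 matched by an older symbol) and 1017 different tested genes.

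Genes were named by a rule, and the text gives part of them: EWSR1, FLI1 and DHX9, the 15 kept genes per direction with the largest smaller change and at least 5 CPM in the higher group of each line, up to 5 kept and 2 opposite members per list, the 5 kept genes per direction with the widest gap between lines, and the 3 just inside and outside the rule. Positions and gene types come from GENCODE 29 on GRCh38 (14114 genes matched) and promoters from RefSeq (10469 matched). The pipeline was tested on simulated counts. Alternatives were edgeR 4.0.16 and DESeq2 1.42.0 on recovered reads, other scalings, pseudocounts, filters and weights, a replicate block, each library left out, and removal of the trend on GC content and exon length, the last added after seeing the data.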

Additional observations from a re-analysis of the deposited data

Results flagged for a closer look

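The change with resistance differed between the lines in 3047 of the 4720 kept genes (limma, adjusted p under 0.05). Those named in the text with a difference of 2-fold or more are given here as the log2 change in TC-71 minus that in A4573. ABCB1 also passed, but it is at 0 in all 3 A4573-R libraries, so its fitted difference depends on the value added before the log and is not given.

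Higher genes that rose more in TC-71 were NDRG1 (2.81), DPYSL5 (2.63), SELENOP (2.55), IGFBP3 (2.02), CDKN2C (1.74), IFI6 (1.68), OAS3 (1.58), DLGAP5 (1.55) and PTTG1 (1.28). Higher genes that rose more in A4573 were MBD3L3 (-3.72), ACTG2 (-2.12), CRMP1 (-1.66), TUBB2B (-1.5), HES4 (-1.38), HEYL (-1.27), MYCN (-1.05) and KLHL24 (-1.03). Lower genes that fell more in TC-71 were COL21A1 (-4.27), ACSS3 (-2.49), ITPR2 (-2.45), PARVA (-2.4), WNT5A (-1.8), COL16A1 (-1.36), FBXL17 (-1.2) and XPOT (-1.07). VGLL3 fell more in A4573 (1.12).

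Genes on opposite sides in the lines were CHAC1 (-6.07), SESN2 (-5.07), GLI1 (-3.28) and AXL (-2.04), which were higher in A4573-R and lower in TC-71-R. CTGF (2.88), IFITM3 (2.6), KIF11 (2.01), KIF23 (1.54), FEN1 (1.5), CCNE1 (1.33) and CCND1 (1.24) were lower in A4573-R and higher in TC-71-R.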

How the results depend on the processing

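On recovered reads edgeR called 3683 genes higher and 3405 lower, and DESeq2 4182 and 3664. The numbers of kept genes and of calls stayed within 1.5 times under other pseudocounts, filters, scalings, library weights, edgeR, DESeq2, the removal of the trend on GC content and exon length, and with any 1 library left out. Of the kept genes, 4486 were shared under TMM scaling, 4549 under median-of-ratios and 4291 under quantile normalization, and no scaling moved the median change of all genes by over 0.1. Taking the mean of the 2 line effects, whose error leaves out the difference between lines, raised the calls to 5771 higher and 5620 lower, and the endoplasmic reticulum chaperones called lower to 17. The correlation of deviations was -0.097 to 0.016 between libraries with the same number and -0.058 to 0.157 between those with other numbers. With 3 libraries per group this cannot settle whether the numbers pair samples. With the replicate block the calls were 2372 higher and 2134 lower, 2895 of them with a difference between lines (5454 without the block), with 21 ribosomal protein genes higher and 6 chaperones lower. Fewer residual degrees of freedom are part of that fit.

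Common changes near 0 turned sign. DHX9 was -0.03 under quantile normalization and -0.003 and -0.005 without TC-71-R replicates 1 and 3 (up to 0.13 with another library left out, and 0.275 with library weights), and EWSR1 was 0.008 with library weights and 0.041 with the GC trend removed. List medians that turned were the IGF axis (0.007 without a filter, 0.047 at a mean of 5 CPM or more), EWS-FLI1 repressed targets (0.011 with library weights), Notch (-0.001) and the BCL2 family (-0.041, both with the GC trend removed). The cause was not tested. At this depth 3 reads correspond to 0.0309 to 0.0444 CPM.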

Other observations

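The largest shared rise of all belonged to a gene outside the naming rule because it carries a clone name, and it was picked after its values were seen. AC116565.1 is a lincRNA gene (ENSG00000283183.1) at chr4:577168-584866 on the plus strand of GRCh38. Its mean rose from 1.70 to 20.5 CPM in A4573 and from 0.269 to 8.22 CPM in TC-71, a log2 change of 2.99 and 2.86. AC116565.2, named for the same clone, changed by 1.73 and 1.59. Of the 95 kept genes with a change of 2-fold or more in both lines, 4 carry a clone name or no symbol.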
